A study of Mus musculus with 10 samples.

Results

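The jejunum of newborn mice was examined for the expression of 50 genes of the cell cycle and of DNA replication. The genes were taken by symbol from the tables of the 10 deposited libraries, and all 50 were present among the 24062 symbols of the files. WT denotes wild-type C57BL/6 pups, the control littermates of the study. KSR23 denotes pups of the R23 line, on a C57BL/6 background, in which a cassette for both subunits of interleukin-23 (IL-23; p19 and p40) sits behind a floxed STOP signal at ROSA26 and is released by a cre recombinase under the human K14 promoter, active in keratinocytes. Both groups were sampled at postnatal day 5, with 5 libraries each. RNA came from whole jejunum, so a lower level in a library can mean fewer cells of a type or less RNA per cell, and these cannot be told apart. The study calls the libraries of a group biological replicates, the labels do not tie each to an animal, and p-values measure the spread between these libraries only.

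The cell cycle is driven by cyclins, the regulatory partners of cyclin-dependent kinases. D and E cyclins bring a cell out of G1, the MCM complex is loaded on origins of replication and opens the DNA for the polymerases in S phase, and the B cyclins with Cdk1, the Polo and Aurora kinases and the spindle motors carry the cell through mitosis. In the intestine of newborn mice, division takes place in the epithelium between the villi, where crypts form, while the differentiated enterocytes on the villi have left the cycle.

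The libraries held 25.5 to 32.0 M counts in genes in WT and 31.2 to 60.9 M in KSR23, and each of the 50 genes had 5 or more counts in every library. Levels are given as CPM (counts per 1000000 counts of the library) with library totals scaled by TMM factors, and values in every library are listed in the order of replicates 1 to 5. The libraries were not alike in one respect that touches every result below. WT replicate 1 was the lowest or the highest of its group at 41 of the 50 genes and KSR23 replicate 3 at 42. WT replicates 2 and 3 were so at 28 and 22 genes, and KSR23 replicates 1 and 2 at 32 and 18. Replicates 4 and 5 were so at only 2 and 7 genes in WT and at 4 and 4 in KSR23. Over all 17632 genes tested, the same held for 62.4% of genes in WT replicate 1, 64.2% in KSR23 replicate 3 and between 15.7% and 22.9% in replicates 4 and 5. Libraries that lie between the others narrow the spread of their group. Counts of calls among the 50 genes and the other gene lists are therefore also given without replicates 4 and 5. The calls of cell markers are given with all 10 libraries only.

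Of the 50 genes, 18 (36%) differed between KSR23 and WT at an adjusted p under 0.05 in the likelihood ratio test, 17 of them higher in KSR23 and 1 lower, against 18.5% of all genes tested. Among all genes, 9.73% were called higher and 8.76% lower. On the same models, the F test of quasi-likelihood called 14 of the 50 (13 higher, 1 lower) against 15.4% of all genes. The log2 fold change of KSR23 over WT was positive for 37 of the 50 genes, with a median of 0.61 over the 50 genes and 0.03 over all genes tested. In 9 genes (18%) the 5 KSR23 values did not overlap the 5 WT values, 8 of them higher in KSR23, against 14.4% of all genes in either direction and 7.41% with KSR23 higher. Over the 11519 genes at or above the lowest mean level of the 50, the groups did not overlap at 17.7% and 21.0% were called, so the 18% is near the share of genes at such levels. With replicates 1 to 3 alone, 0 of the 50 genes passed in edgeR's likelihood ratio test or quasi-likelihood F test (10 and 12 at an unadjusted p under 0.05), against 3.36% and 0.812% of all genes, and the median log2 fold change of the 50 genes was 0.69. The 18 genes kept their direction there, with log2 fold changes from 0.68 (Mcm4) to 1.80 (Myc) in the 17 higher genes and -0.57 in Cdk4.

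**Figure D1:**
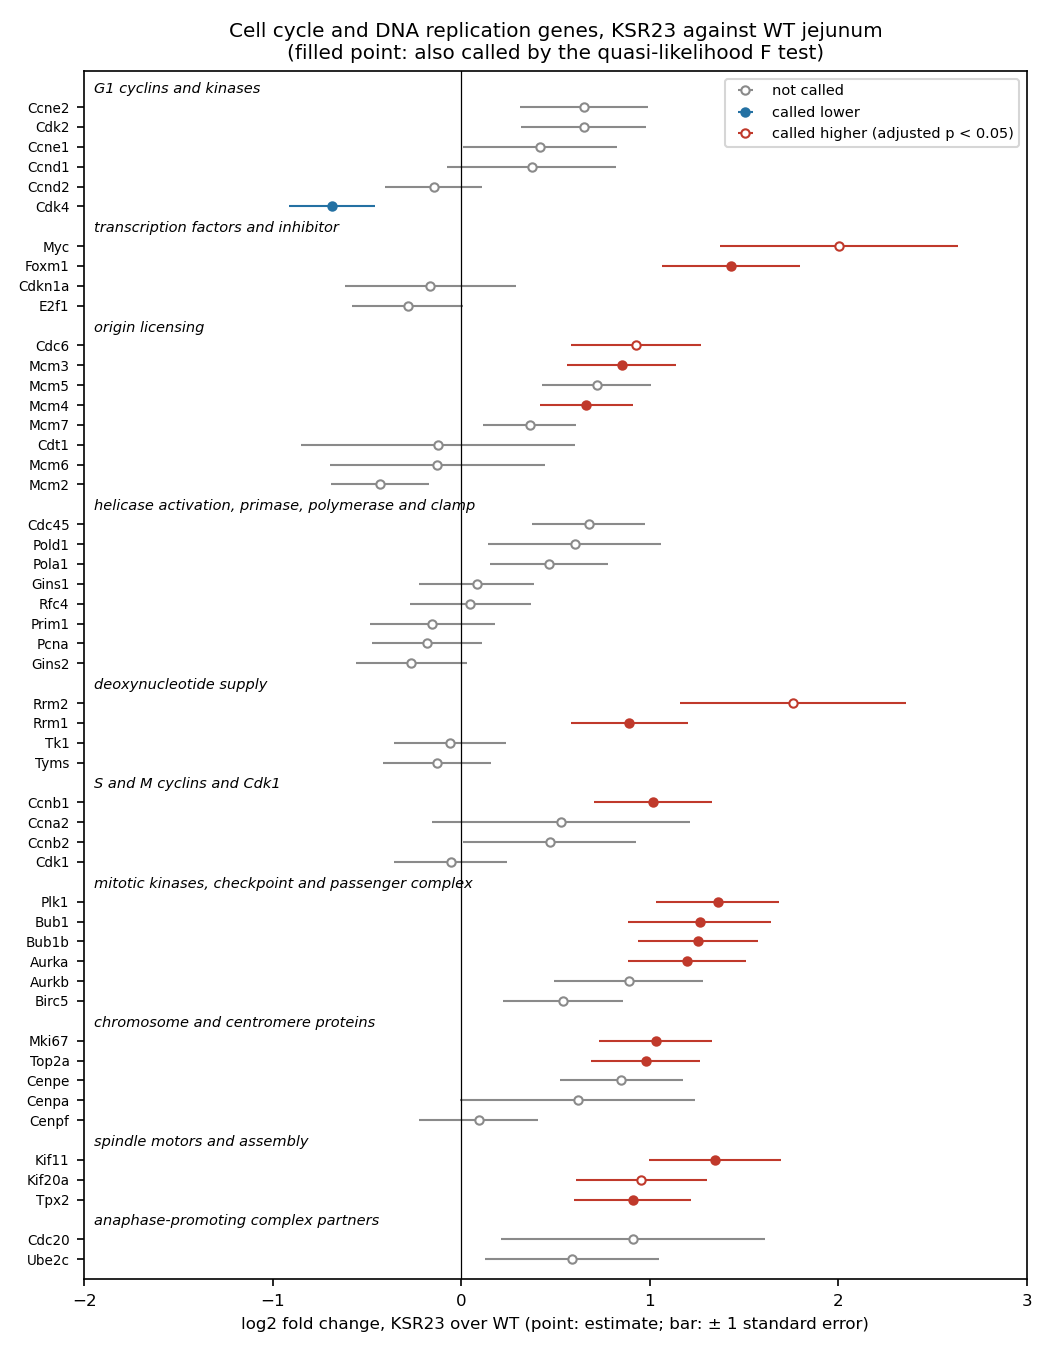
Log2 fold change of KSR23 over WT (points) with 1 standard error on either side (bars) for the 50 genes, ordered by role, from all 10 libraries. Genes of the mitotic kinases, checkpoint and spindle lie to the right of 0, with 7 of 9 called higher. With upper-quartile factors in place of TMM factors, 3 of 6 kinase and checkpoint genes and 1 of 3 spindle genes were called. The 8 genes of the helicase, primase, polymerase and clamp scatter around 0 and 0 were called. Over all genes tested, 18.5% were called and 9.73% were called higher, and 8 genes are too few to set 0 calls apart from these shares.

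Of the 17 genes that rose, 10 act in mitosis, and the mitotic groups, in the order given below, hold 6, 3, 5, 4 and 2 of the 50 genes. Among the mitotic kinases, the spindle checkpoint and the passenger complex, 4 of 6 genes were called higher (median log2 fold change 1.23), against 9.73% of all genes. With upper-quartile factors in place of TMM factors, 3 of these 6 were called. Plk1, the Polo-like kinase that drives entry into mitosis and spindle assembly (chr7:122159439-122169873, mm10), measured 15.3, 21.6, 22.8, 19.8 and 15.6 CPM in WT and 45.3, 77.5, 25.5, 50.2 and 46.0 CPM in KSR23. Every KSR23 library exceeded every WT library, with KSR23 replicate 3 the nearest to WT. The mean went from 19.0 ± 3.44 to 48.9 ± 18.6 CPM (SD, n = 5 each; 2.57-fold), and Plk1 had the smallest adjusted p of the 50 genes (log2 fold change 1.36 ± 0.33, adjusted p = 0.000689; 0.0073 by the quasi-likelihood F test).

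Aurka, the Aurora kinase of centrosomes and spindle poles (chr2:172356190-172370535), measured 35.4, 19.1, 23.5, 29.3 and 32.2 CPM in WT and 37.5, 82.2, 75.4, 50.2 and 74.6 CPM in KSR23. The groups did not overlap, although KSR23 replicate 1 was only just above WT replicate 1 (log2 fold change 1.20 ± 0.31, adjusted p = 0.0022). Bub1b, which encodes the checkpoint protein BubR1, measured 30.2, 20.3, 18.3, 27.5 and 30.9 CPM in WT and 40.5, 58.4, 88.1, 43.0 and 73.9 CPM in KSR23, again without overlap (log2 fold change 1.26 ± 0.32, adjusted p = 0.00133). Bub1, the checkpoint kinase at kinetochores, measured 14.0, 4.63, 6.27, 10.7 and 11.9 CPM in WT and 14.1, 22.9, 32.1, 17.0 and 28.4 CPM in KSR23. Its lowest KSR23 value lay just above its highest WT value, and both belonged to replicate 1 (log2 fold change 1.27 ± 0.38, adjusted p = 0.00895).

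Aurkb and Birc5 (survivin), which act together in the chromosomal passenger complex, were not called. Aurkb measured 10.7, 32.5, 23.0, 21.2 and 16.8 CPM in WT and 41.2, 60.5, 15.7, 39.8 and 35.9 CPM in KSR23 (log2 fold change 0.89 ± 0.39, adjusted p = 0.105). KSR23 replicate 3 lay below 4 of the 5 WT libraries, and the other 4 KSR23 libraries were above every WT library. With WT replicate 1 and KSR23 replicate 3 both left out, a setting chosen after the data were seen, Aurkb passed (adjusted p = 0.0239). Birc5 ranged from 37.2 to 87.5 CPM in WT and from 68.7 to 130.1 CPM in KSR23 (log2 fold change 0.54 ± 0.32, adjusted p = 0.248).

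All 3 genes of spindle motors and assembly were called higher, against 9.73% of all genes, and 1 of 3 was called with upper-quartile factors. Kif11, the motor that pushes spindle poles apart, measured 12.7, 18.3, 16.9, 16.0 and 12.4 CPM in WT and 41.5, 57.3, 14.9, 42.9 and 37.5 CPM in KSR23. The 4 KSR23 libraries other than replicate 3 were above every WT library, and KSR23 replicate 3 lay inside the WT range (log2 fold change 1.35 ± 0.35, adjusted p = 0.00223). Tpx2, which activates Aurora A on spindle microtubules, measured 29.1, 14.9, 19.2, 27.2 and 30.9 CPM in WT and 32.6, 52.1, 59.1, 39.3 and 45.0 CPM in KSR23. The groups did not overlap, and WT replicate 5 and KSR23 replicate 1 were the nearest pair (log2 fold change 0.91 ± 0.31, adjusted p = 0.0241). Kif20a, a motor of the central spindle needed for cytokinesis, measured 31.2, 13.3, 14.8, 23.1 and 29.1 CPM in WT and 28.9, 45.3, 61.3, 32.6 and 48.1 CPM in KSR23. KSR23 replicate 1 fell within the WT range, and the call was lost in the quasi-likelihood F test (log2 fold change 0.96 ± 0.35, adjusted p = 0.0373; 0.0525 by the F test).

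Among the chromosome and centromere proteins, 2 of 5 genes were called higher, against 9.73% of all genes, and 0 of 5 were called with upper-quartile factors. Mki67, the antigen used to stain dividing cells (chr7:135689784-135716361), measured 24.2, 16.7, 17.1, 19.8 and 24.4 CPM in WT and 32.4, 29.8, 58.7, 36.9 and 51.3 CPM in KSR23. All 5 KSR23 libraries were above all 5 WT libraries, a 2.04-fold difference of the fitted levels (log2 fold change 1.03 ± 0.30, adjusted p = 0.00666). Top2a, the topoisomerase that untangles sister chromatids, measured 75.5, 41.7, 50.01, 56.0 and 66.6 CPM in WT and 74.6, 119, 150.4, 94.4 and 133 CPM in KSR23. Only KSR23 replicate 1 fell below the highest WT library, replicate 1 (log2 fold change 0.98 ± 0.29, adjusted p = 0.00755). Cenpe, a kinetochore motor, just missed the threshold: it measured 28.9, 14.0, 18.4, 18.5 and 24.5 CPM in WT and 25.3, 35.4, 53.6, 27.9 and 45.8 CPM in KSR23, with KSR23 replicates 1 and 4 below WT replicate 1 (log2 fold change 0.85 ± 0.33, adjusted p = 0.0523). DESeq2 called Cenpe, the only one of the 50 genes that it added. Cenpa, the histone of centromeric chromatin, and Cenpf, a kinetochore and nuclear matrix protein, had log2 fold changes of 0.62 ± 0.62 and 0.09 ± 0.32 and were not called.

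Of the S and M cyclins and their kinase, Ccnb1 alone was called (1 of 4, against 18.5% of all genes tested). Ccnb1, the cyclin that activates Cdk1 at mitotic entry, measured 50.6, 27.9, 30.3, 38.1 and 45.8 CPM in WT and 48.5, 84.4, 107, 57.1 and 92.4 CPM in KSR23, with only KSR23 replicate 1 below the highest WT library (log2 fold change 1.02 ± 0.31, adjusted p = 0.0114). In Ccnb1, 35.2% of the stretches of 75 bases also occur in other annotated loci, pseudogenes among them, and reads from these stretches with more than 1 alignment entered no gene. Cdk1 itself gave a log2 fold change of -0.06 ± 0.30 (adjusted p = 0.928), with WT libraries from 49.5 to 102 CPM and KSR23 libraries from 51.8 to 102 CPM. Ccnb2 (0.47 ± 0.46) was not called either. Ccna2, the cyclin of S phase and G2, fell into separate levels inside each group: it measured 5.11, 8.59, 33.2, 8.03 and 11.1 CPM in WT and 47.1, 5.19, 6.96, 30.6 and 5.39 CPM in KSR23. WT replicate 3 and KSR23 replicates 1 and 4 were at 30.6 CPM or above and the other 7 libraries at 11.1 CPM or below, and the ranges of the groups overlapped almost wholly (log2 fold change 0.53 ± 0.68, adjusted p = 0.657). Ccna2 overlaps Exosc9 in the annotation.

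Both partners of the anaphase-promoting complex, Cdc20 and the ubiquitin-conjugating enzyme Ube2c, had positive log2 fold changes (0.91 ± 0.70 and 0.59 ± 0.46) but wide spreads. By the likelihood ratio test, the quasi-likelihood F test or DESeq2, 0 of 2 were called (0 at an unadjusted p under 0.05). These 2 genes are too few to set against the 18.5% called over all genes. Cdc20 measured 2.45, 32.7, 37.6, 21.6 and 9.72 CPM in WT and 64.8, 54.6, 4.13, 51.7 and 20.7 CPM in KSR23. WT replicate 1 was 10.4-fold below the mean of the other WT libraries and KSR23 replicate 3 was 11.6-fold below the mean of the other KSR23 libraries.

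**Figure D2:**
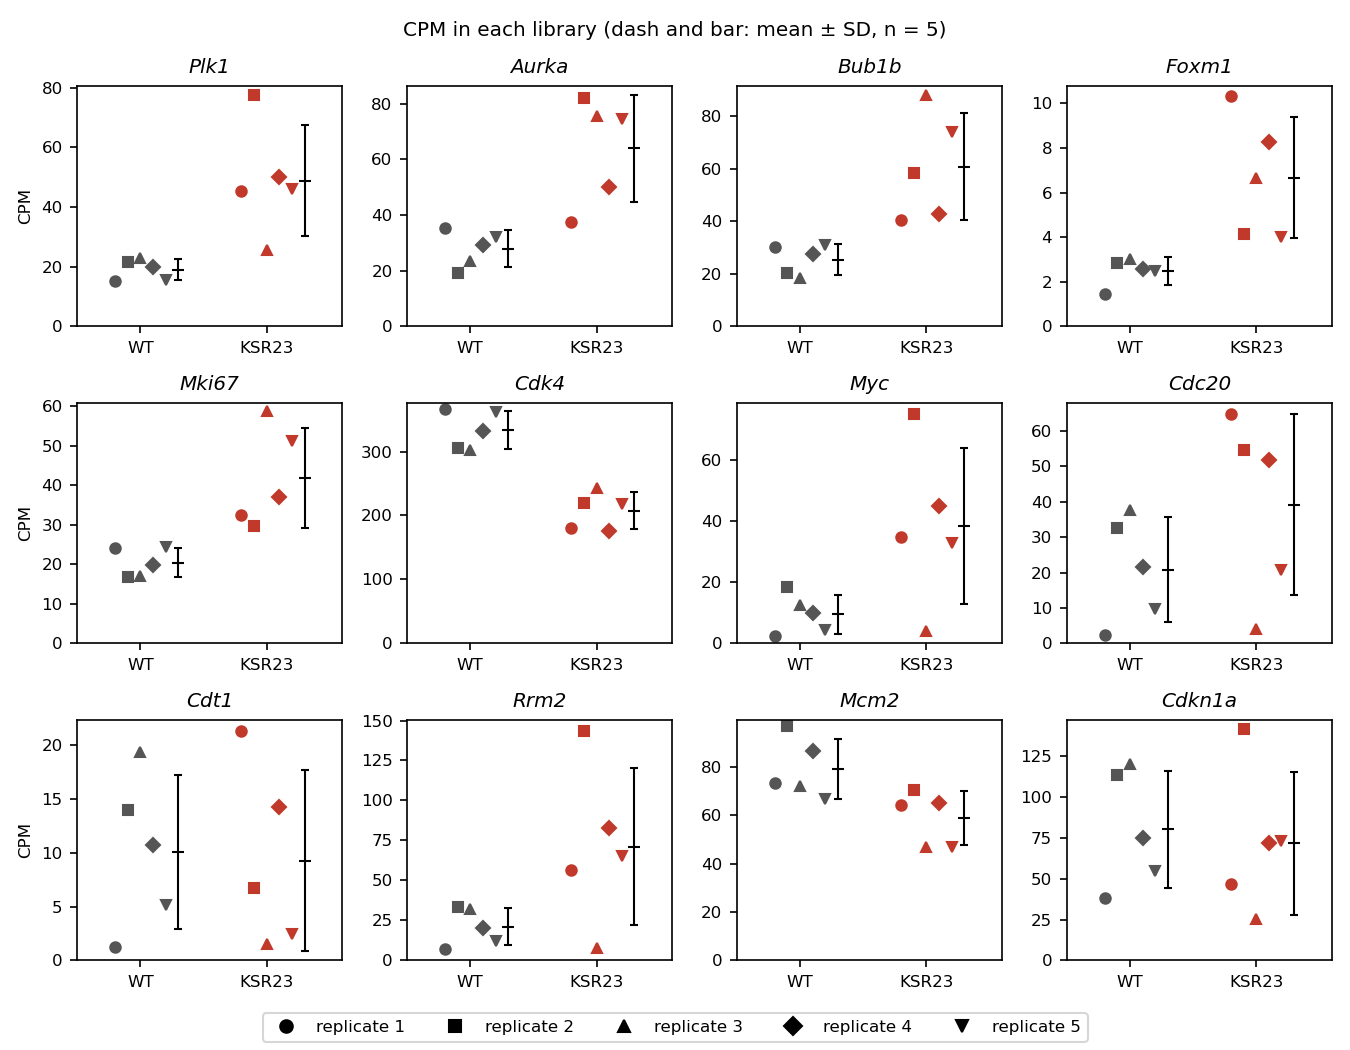
CPM of 12 of the 50 genes in each library (symbols by replicate; WT grey, KSR23 red), with the mean and SD of each group (n = 5) at the right of its points. Plk1, Aurka, Bub1b, Foxm1 and Mki67 show separate groups and Cdk4 shows them in the opposite order, whereas in Myc, Cdc20, Cdt1 and Rrm2 the lowest points are WT replicate 1 and KSR23 replicate 3, and both groups spread widely.

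Promoters of mitotic genes carry well-known short elements, the CCAAT box bound by NF-Y and the cell cycle homology region (CHR) bound by the DREAM and MuvB complexes, and promoters of replication genes carry E2F sites. The letters of these elements were searched on both strands in the 300 bases around the start (250 before, 50 after) that RefSeq gives for build GRCm38.p6. Of the 50 genes, 38 had an entry. The 12 without one were Ccnd1, Ccnd2, Ccne2, Myc, Foxm1, Mcm4, Gins1, Gins2, Ccna2, Aurkb, Kif20a and Tpx2. The letters CCAAT occurred in 27 of 38 genes (71.1%), against 41.1% of the 27025 genes of the table. The CHR letters TTTGAA or TTCGAA occurred in 16 of 38 (42.1%), against 21.7% of all genes, and all 16 also held CCAAT. The letters TTTGGCGC, TTTCCCGC, TTTCGCGC or TTTGCCGC, forms of the E2F site, occurred in 10 of 38 (26.3%), against 2.61% of all genes. Matches overlapped in 4 of the 40 windows searched for these genes.

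By role, the CHR letters were in 13 of 16 genes of the mitotic groups and in 3 of 17 genes of licensing, synthesis and deoxynucleotide supply, and the E2F letters were in 1 of 16 and 8 of 17. Among genes with an entry, the CHR letters were in 7 of 12 called higher and in 9 of 25 not called, so genes with these letters stood in both classes. A match shows only that the letters are present. The 150 bases before the start are shown for 4 mitotic genes and 1 gene of the MCM complex, with matches to any of the 3 elements in capitals on whichever strand they occur. Kif11 (plus strand, chr19:37376232-37376381), Top2a (minus strand, chr11:99024190-99024339) and Mki67 (minus strand, chr7:135716380-135716529) were called higher and Cdc20 (minus strand, chr4:118437344-118437493) and Mcm6 (minus strand, chr1:128359706-128359855) were not.
Kif11: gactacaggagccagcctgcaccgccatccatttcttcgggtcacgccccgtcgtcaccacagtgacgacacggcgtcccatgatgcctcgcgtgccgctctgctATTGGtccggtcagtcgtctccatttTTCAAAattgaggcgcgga
Top2a: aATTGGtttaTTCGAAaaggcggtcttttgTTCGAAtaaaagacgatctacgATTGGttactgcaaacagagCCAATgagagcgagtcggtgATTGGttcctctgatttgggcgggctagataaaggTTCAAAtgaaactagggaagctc
Mki67: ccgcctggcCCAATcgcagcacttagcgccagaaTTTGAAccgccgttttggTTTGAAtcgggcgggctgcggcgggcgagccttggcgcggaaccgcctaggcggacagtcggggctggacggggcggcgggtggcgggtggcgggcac
Cdc20: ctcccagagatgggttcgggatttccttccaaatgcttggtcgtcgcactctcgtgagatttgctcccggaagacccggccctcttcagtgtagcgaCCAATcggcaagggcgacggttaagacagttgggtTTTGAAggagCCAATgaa
Mcm6: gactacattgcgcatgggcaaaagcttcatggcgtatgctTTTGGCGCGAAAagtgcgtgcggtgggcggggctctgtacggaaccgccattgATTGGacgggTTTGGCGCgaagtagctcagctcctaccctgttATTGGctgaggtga
In the first 4 of these stretches the 5-letter matches are the CCAAT box, read as CCAAT or ATTGG, and the 6-letter matches are the CHR. In Mcm6 the longer capitals are E2F matches, a pair of which overlap in 1 run, beside its CCAAT matches. Cdc20, with the same kinds of matches as Kif11, was among the genes with the widest spread between libraries.

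Among genes of DNA replication a few were called higher, where over all genes tested 18.5% were called and 9.73% were called higher. Of the 8 licensing genes, which load the MCM helicase on origins, 3 were called higher. With upper-quartile factors in place of TMM factors, 0 of these 8 were called. Cdc6, the loading factor, measured 12.0, 6.26, 6.49, 8.29 and 9.99 CPM in WT and 10.5, 17.0, 19.1, 11.0 and 24.5 CPM in KSR23, with KSR23 replicates 1 and 4 inside the WT range (log2 fold change 0.93 ± 0.34, adjusted p = 0.0423; 0.0539 by the quasi-likelihood F test). Mcm3 measured 64.0, 41.4, 32.9, 52.4 and 53.3 CPM in WT and 62.2, 96.3, 109, 69.7 and 103 CPM in KSR23, where only KSR23 replicate 1 fell under WT replicate 1 (log2 fold change 0.85 ± 0.29, adjusted p = 0.024). Mcm4 measured 35.1, 40.7, 29.4, 32.0 and 38.0 CPM in WT and 54.3, 62.2, 48.0, 55.9 and 57.0 CPM in KSR23, a small difference (log2 fold change 0.66 ± 0.25, adjusted p = 0.0435) in which the groups did not overlap. Mcm5 measured 56.4, 35.4, 28.7, 43.1 and 51.4 CPM in WT and 53.1, 80.1, 84.6, 57.6 and 78.5 CPM in KSR23, and KSR23 replicate 1 fell within the WT range (log2 fold change 0.72 ± 0.29, adjusted p = 0.0655, not called).

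The other subunits of the same MCM complex did not pass. Mcm7 gave 0.36 ± 0.25, and 14.5% of its stretches of 75 bases are shared with another locus. Mcm2 measured 73.4, 96.8, 71.9, 86.7 and 66.6 CPM in WT and 64.3, 70.5, 46.9, 65.0 and 46.6 CPM in KSR23, with 4 of the 5 KSR23 libraries under every WT library (log2 fold change -0.43 ± 0.26, adjusted p = 0.26). Mcm6 measured 17.8, 125, 96.8, 75.8 and 32.2 CPM in WT and 129, 44.9, 21.6, 91.7 and 30.8 CPM in KSR23: WT replicate 1 was 4.63-fold below the mean of the other WT libraries and KSR23 replicate 3 3.44-fold below the other KSR23 libraries (log2 fold change -0.13 ± 0.57, adjusted p = 0.914). Cdt1, the partner of Cdc6 in licensing, measured 1.27, 14.0, 19.4, 10.8 and 5.14 CPM in WT and 21.3, 6.77, 1.55, 14.3 and 2.46 CPM in KSR23, and its standard error was the largest of the 50 genes (log2 fold change -0.12 ± 0.73, adjusted p = 0.935).

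Among the 8 genes of helicase activation, primase, polymerase and clamp, 0 were called. So few genes cannot set this apart from the 18.5% called over all genes. The count was 0 in edgeR's likelihood ratio test, in its quasi-likelihood F test and in DESeq2 (1 gene at an unadjusted p under 0.05). That gene was Cdc45, a subunit of the active helicase, which measured 16.0, 9.94, 13.2, 12.7 and 14.8 CPM in WT and 14.6, 21.8, 30.6, 17.1 and 22.4 CPM in KSR23 (log2 fold change 0.68 ± 0.30, adjusted p = 0.105). Pold1, the catalytic subunit of the lagging-strand polymerase delta, and Pola1, of the priming polymerase alpha, had log2 fold changes of 0.60 ± 0.46 and 0.47 ± 0.32. The GINS subunits Gins1 and Gins2 (0.08 ± 0.30 and -0.26 ± 0.29), the primase subunit Prim1 (-0.15 ± 0.33), the clamp loader subunit Rfc4 (0.05 ± 0.32) and Pcna, the sliding clamp (-0.18 ± 0.29), all lay within 1 standard error of 0. Pcna ranged from 71.1 to 112 CPM in WT and from 51.9 to 113 CPM in KSR23, and 23.7% of its stretches of 75 bases are shared with a pseudogene.

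Of 4 genes that supply deoxynucleotides, both subunits of ribonucleotide reductase rose (2 of 4 called higher, against 9.73% of all genes). Rrm1, the large subunit, measured 108, 57.7, 48.5, 74.3 and 81.8 CPM in WT and 94.4, 132, 193, 107 and 160.1 CPM in KSR23, with KSR23 replicates 1 and 4 below WT replicate 1 (log2 fold change 0.89 ± 0.31, adjusted p = 0.0285). Rrm2, the small subunit, measured 7.21, 33.2, 32.0, 20.1 and 12.4 CPM in WT and 56.3, 144, 7.67, 83.1 and 65.2 CPM in KSR23. Its 4 highest KSR23 libraries exceeded all WT libraries, but KSR23 replicate 3 was 11.3-fold below their mean and close to the lowest WT library (log2 fold change 1.76 ± 0.60, adjusted p = 0.0284; 0.0741 by the quasi-likelihood F test). Thymidylate synthase, Tyms, and thymidine kinase, Tk1, had log2 fold changes of -0.13 ± 0.29 and -0.06 ± 0.30.

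In G1, the kinase Cdk4 was the only gene of the 50 that fell. Cdk4, the kinase of the D cyclins (chr10:127063534-127067920), measured 366, 306, 303, 333 and 361 CPM in WT and 179.96, 219.8, 244, 176 and 218 CPM in KSR23. The groups did not overlap, and the mean went from 334 ± 29.8 to 207 ± 28.8 CPM (SD, n = 5 each; log2 fold change -0.69 ± 0.23, adjusted p = 0.0199). Per kilobase of transcript, Cdk4 also had the highest mean level of the 50 genes in WT (163 CPM per kilobase) and Foxm1 the lowest (0.533). The Cdk4 locus overlaps Tspan31 in the annotation and no source gives the strandedness used for counting. Of the called genes that rose, Foxm1, Kif20a, Plk1 and Top2a also overlap other annotated genes (Tex52 and Gm44596, Cdc23, Gm44985 and Gm23451). The call held in 4 of the 10 fits that left out 1 library, and was lost without WT replicates 1, 4 or 5 or KSR23 replicates 1, 4 or 5. The D cyclins Ccnd1 and Ccnd2 gave 0.37 ± 0.45 and -0.15 ± 0.26, the E cyclins Ccne1 and Ccne2 gave 0.42 ± 0.41 and 0.65 ± 0.34, and their kinase Cdk2 gave 0.65 ± 0.33, and none of these 5 was called.

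Of the transcription factors, Myc and Foxm1 rose and E2f1 did not. Foxm1, the forkhead factor that drives genes of G2 and mitosis (chr6:128362967-128376146), measured 1.45, 2.86, 3.05, 2.56 and 2.48 CPM in WT and 10.3, 4.13, 6.64, 8.27 and 4.01 CPM in KSR23. All KSR23 values were above all WT values at this low level (log2 fold change 1.43 ± 0.37, adjusted p = 0.00171). Myc, the growth-promoting factor (chr15:61985391-61990374), had the largest log2 fold change of the 50 genes and measured 2.57, 18.3, 12.6, 9.82 and 4.51 CPM in WT and 34.7, 74.9, 4.21, 44.9 and 32.8 CPM in KSR23. The 4 KSR23 libraries other than replicate 3 were all above every WT library, but KSR23 replicate 3 was below 4 of the 5 WT libraries (log2 fold change 2.0 ± 0.63, adjusted p = 0.0168; 0.0581 by the quasi-likelihood F test). With WT replicate 1 and KSR23 replicate 3 left out, Myc passed both tests. E2f1, which switches on replication genes, ranged from 3.02 to 4.36 CPM in WT and from 2.26 to 3.75 CPM in KSR23 (log2 fold change -0.28 ± 0.30, adjusted p = 0.566).

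Cdkn1a, the p53-induced inhibitor p21, measured 38.4, 113, 120.1, 74.8 and 54.7 CPM in WT and 47.0, 141, 25.1, 72.0 and 73.0 CPM in KSR23. The groups overlapped throughout (log2 fold change -0.16 ± 0.45, adjusted p = 0.857). Of the 15 listed targets of p53, p53 itself included, only Pmaip1, the pro-apoptotic protein Noxa, was called (6.67%, against 18.5% of all genes tested; WT 35.9 ± 12.8 and KSR23 123 ± 67.0 CPM; log2 fold change 1.78 ± 0.40, adjusted p = 0.00026), and the median log2 fold change of the 15 was -0.01.

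Not every call rested equally on each library. In all 10 fits that left out 1 library, 9 of the 18 genes remained called: Aurka, Bub1, Bub1b, Ccnb1, Foxm1, Kif11, Mki67, Plk1 and Top2a. The number of called genes among the 50 went from 18 to 10 without KSR23 replicate 5 and to 11 without WT replicate 5, and was 12 to 20 without any other library. Calls over all genes also went down in the first pair of fits, from 18.5% to 14.8% and 13.5%, and were 14.2% to 21.6% in the rest. Myc was called in 8 of the 10 fits, Mcm3 and Tpx2 in 7, Cdk4, Rrm1, Rrm2 and Kif20a in 4 and Cdc6 and Mcm4 in 3. Scaling mattered too: with upper-quartile factors, which lowered the median log2 fold change of all genes by 0.16 (from 0.03 to -0.13), 7 of the 50 genes were called higher (Myc, Foxm1, Rrm2, Aurka, Plk1, Bub1b and Kif11) and 1 lower (Cdk4). Ccnb1, Bub1, Mki67 and Top2a, called in every fit without 1 library, were not called there, and 0 genes of origin licensing or of chromosome and centromere proteins were. These 8 genes are 16% of the 50, about the 16.5% called over all genes at this scaling, so the excess of calls seen with TMM factors was not present there. The 7 higher genes (14%) stand against 6.45% of all genes. Calls over all genes went from 1716 higher and 1545 lower to 1137 and 1779. The median of the 50 genes minus the median of all genes was 0.58 with TMM factors and 0.59 with upper-quartile factors.

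The spread inside the groups followed a pattern shared by WT replicate 1 and KSR23 replicate 3. At 14 of the 50 genes (28%) both libraries were the lowest of their group, at 22 (44%) both were the highest, and at the remaining 14 neither held. Over the 9737 genes with a mean above 5 CPM these shares were 26.5% and 25.7%. The genes with both libraries lowest were Ccnd1, Cdk2, Myc, Cdkn1a, Cdt1, Mcm6, Pold1, Rrm2, Ccnb2, Aurkb, Plk1, Cenpa, Cdc20 and Ube2c. In these genes the highest library exceeded the lowest by a median of 4.12-fold in WT and 5.66-fold in KSR23, against 1.96-fold and 2.03-fold in the genes with both libraries highest. The same difference in spread was present over all genes tested, at 4.68-fold and 6.38-fold against 1.67-fold and 2.20-fold. Of the 50 genes, 3 of 14 (21.4%) and 7 of 22 (31.8%) in these classes were called, and of all genes tested 9.53% and 23.5%. Cenpa is an example, at 3.99, 32.2, 50.7, 18.0 and 15.5 CPM in WT and 39.3, 65.6, 6.40, 44.4 and 29.2 CPM in KSR23. WT replicate 1 lay 7.29-fold and KSR23 replicate 3 6.97-fold below the mean of the rest of its group.

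Genes with related products parted along this line. Of the subunits of ribonucleotide reductase, Rrm1 was highest and Rrm2 lowest in both libraries. Of the B cyclins, alternative partners of Cdk1, Ccnb1 was highest and Ccnb2 lowest. Of the MCM complex, Mcm3, Mcm5 and Mcm7 were highest, Mcm6 was lowest, and Mcm2 and Mcm4 were neither. The G and C content of the first 300 bases of the transcript had a median of 63.2% in the 14 genes with both libraries lowest, 55.2% in the 22 with both highest and 63.0% in the other 14. Over all genes tested the medians were 64.7%, 55.7% and 59.3%. The part of base content in the pattern was not tested. With an offset for this content in the fit, added after the data were seen, 16 of the 50 genes were called, all higher. Over all genes, 19.4% were called in either direction, and 1799 of 17632 genes were called higher. Cenpe and Aurkb gained the call, and Cdk4, Mcm4, Mki67 and Tpx2 lost it. The log2 fold changes of these 4 with the offset were -0.67, 0.55, 1.12 and 0.84, beside -0.69, 0.66, 1.03 and 0.91 without it. Without both libraries, 20 were called (19 higher, 1 lower), all 18 of the calls above and Aurkb and Cenpe, against 19.5% of all genes.

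**Figure D3:**
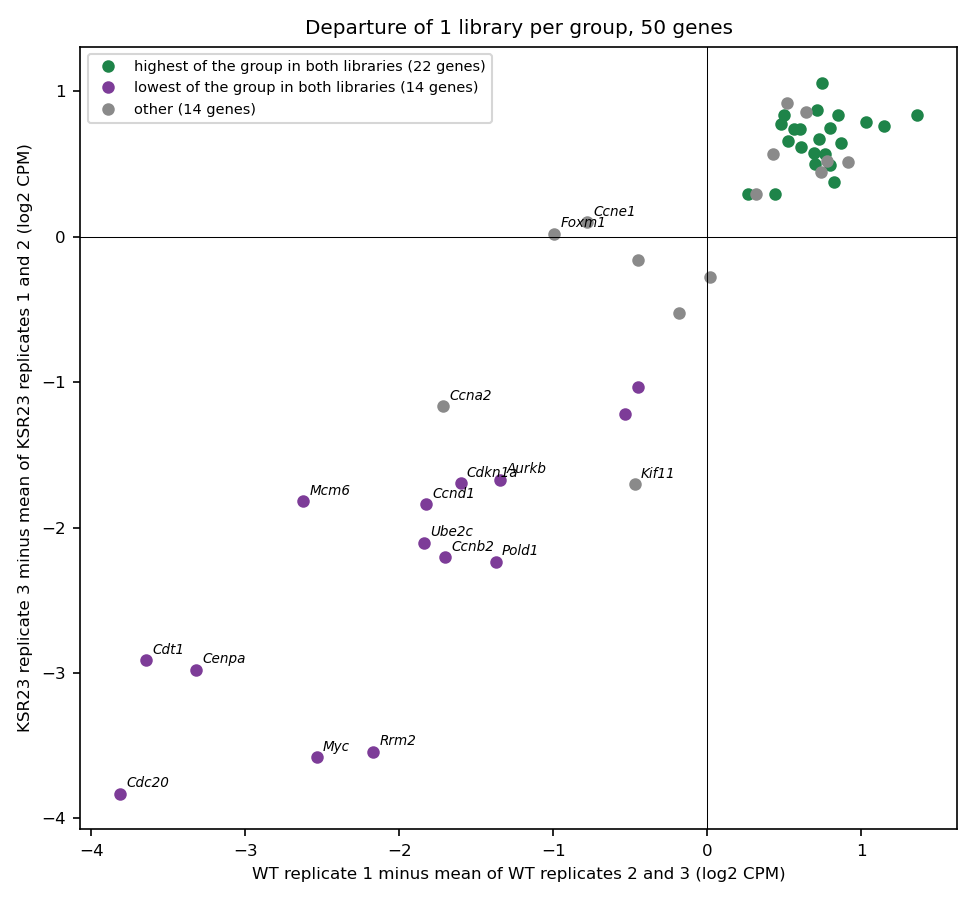
Departure of WT replicate 1 from the mean of WT replicates 2 and 3 (horizontal axis) and of KSR23 replicate 3 from the mean of KSR23 replicates 1 and 2 (vertical axis) in log2 CPM, 1 point per gene for the 50 genes. Cdc20, Cdt1, Cenpa, Myc and Rrm2 lie more than 2 below 0 on both axes, and the 22 genes highest in both libraries gather at the upper right.

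**Figure D4:**
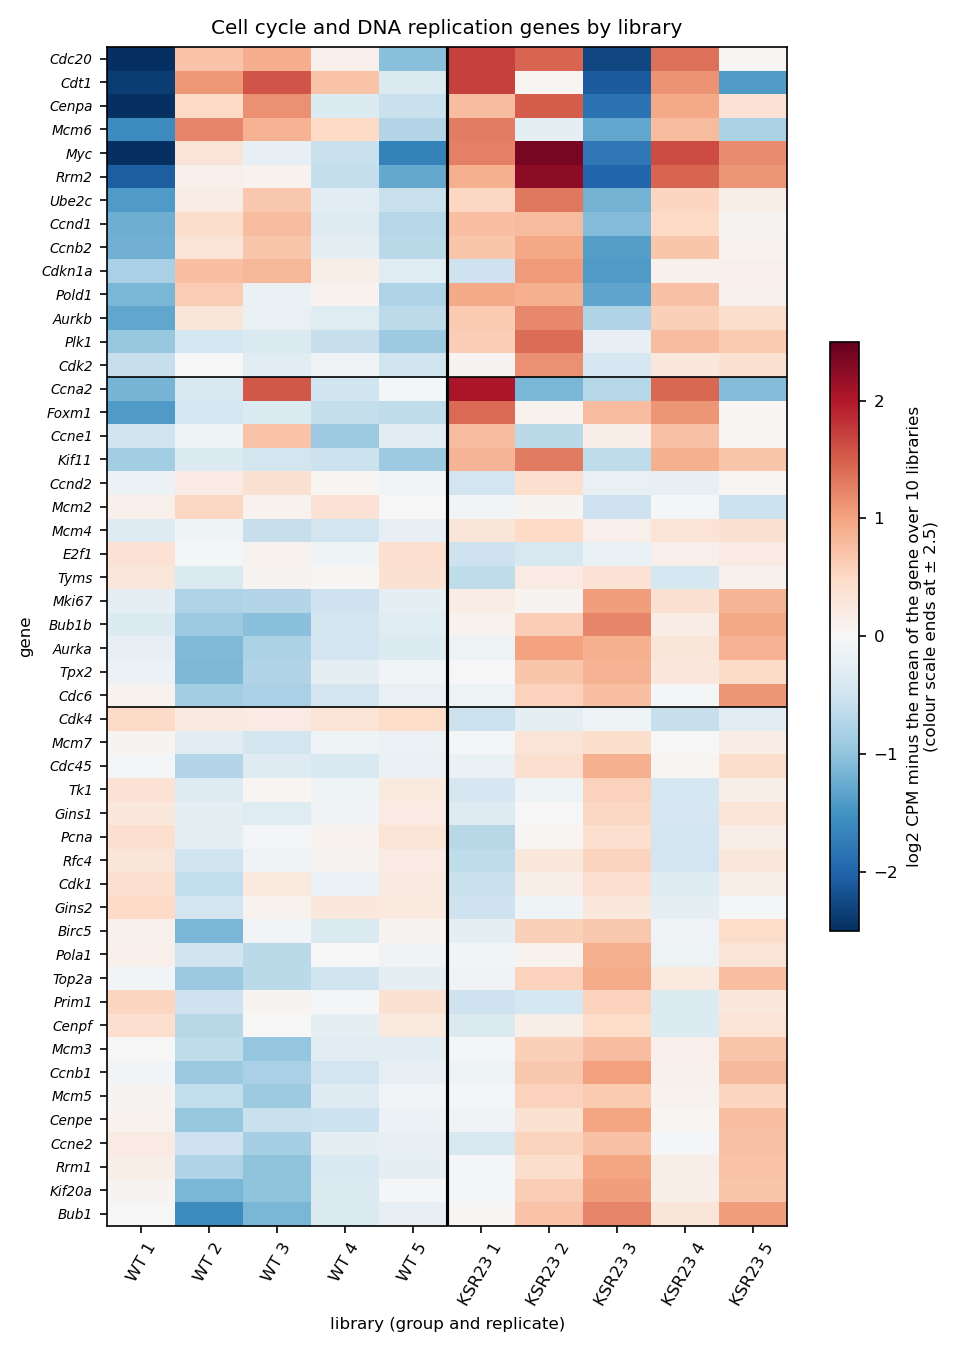
Log2 CPM of the 50 genes in the 10 libraries, each gene centred on its mean (colour; the scale ends at 2.5 above and below), with horizontal lines between genes lowest in both WT replicate 1 and KSR23 replicate 3, other genes, and genes highest in both. The upper block of 14 genes is bluest in those libraries within each group, and the lower block of 22 genes is reddest there.

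Other genes of the same processes were read from the same fit, from lists that leave out the 50 genes. Of 63 other mitosis genes tested, 22 were called (34.9%, against 18.5% of all genes tested), 21 of them higher, and their median log2 fold change was 0.72. Ect2, which directs the cleavage furrow, was the largest (WT 18.6 ± 6.06 and KSR23 53.5 ± 17.3 CPM; log2 fold change 1.52 ± 0.34, adjusted p = 0.000286), followed by the chromokinesin Kif4 (log2 fold change 1.37 ± 0.34, adjusted p = 0.00111), the passenger scaffold Incenp (log2 fold change 1.37 ± 0.38, adjusted p = 0.00492) and the condensin subunit Ncapg (log2 fold change 1.25 ± 0.36, adjusted p = 0.00687). Pttg1, the securin that holds back separase, fell (WT 94.4 ± 23.2 and KSR23 33.9 ± 11.1 CPM; log2 fold change -1.48 ± 0.31, adjusted p = 7.78e-05).

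Of 40 other DNA replication genes, 9 were called (22.5%, against 18.5% of all genes tested), all higher, and the median of the list was 0.15. The largest was Mcm10, which helps to fire origins (WT 9.07 ± 2.64 and KSR23 25.7 ± 6.59 CPM; log2 fold change 1.50 ± 0.33, adjusted p = 0.00018), followed by Orc1, a subunit of the origin recognition complex (log2 fold change 1.41 ± 0.32, adjusted p = 0.000341), Ticrr, which helps to load Cdc45 (log2 fold change 1.35 ± 0.39, adjusted p = 0.006), and Pole, the leading-strand polymerase (log2 fold change 1.12 ± 0.33, adjusted p = 0.0082). Of 28 other regulators, 5 were called, 4 higher and 1 lower, and this share of 17.9% is near the 18.5% of all genes. The higher genes were Mxd1, a Max-binding repressor (log2 fold change 1.66 ± 0.55, adjusted p = 0.0233; 0.0663 by the quasi-likelihood F test), E2f2, an activating E2F factor (WT 5.48 ± 0.389 and KSR23 16.6 ± 1.91 CPM; log2 fold change 1.60 ± 0.26, adjusted p = 7.95e-08), Mybl2, the B-Myb factor of mitotic genes (log2 fold change 1.29 ± 0.39, adjusted p = 0.0105), and Max, the partner of Myc (log2 fold change 0.75 ± 0.27, adjusted p = 0.037). Wee1, the kinase that restrains Cdk1, fell (log2 fold change -1.12 ± 0.36, adjusted p = 0.0176). With replicates 1 to 3 alone, 0 genes of these lists or of the p53 list were called in either edgeR test, and the counts of the lists in fits without 1 library ran from 14 to 29 (mitosis; lowest without KSR23 replicate 5), from 4 to 10 (replication; 4 without WT replicate 3, 5 without KSR23 replicate 5) and from 2 to 5 (regulators; 2 without WT replicate 5 or KSR23 replicate 4).

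**Figure D5:**
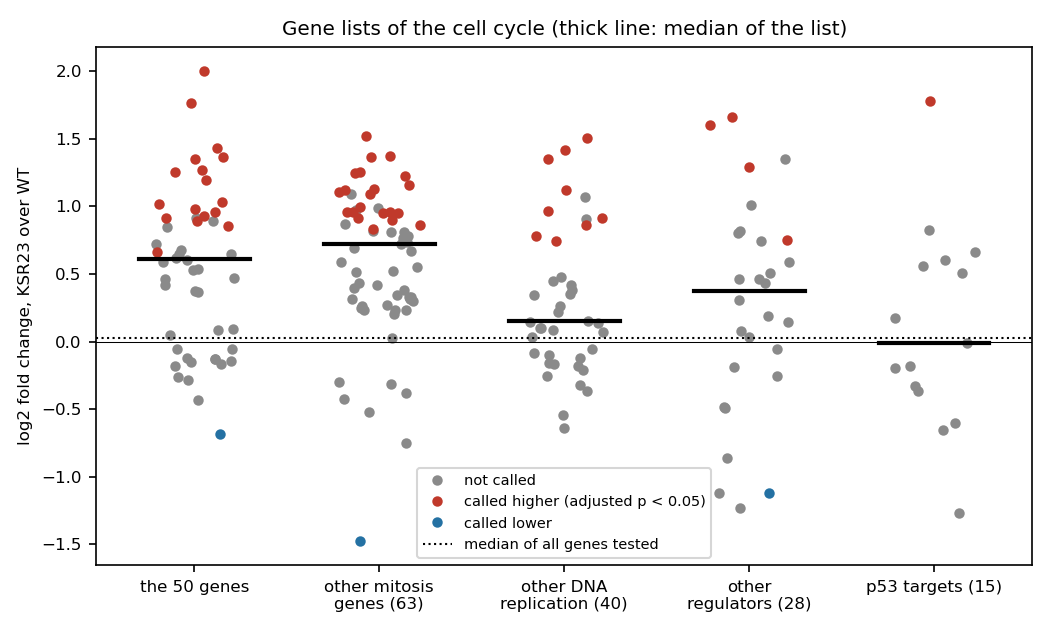
Log2 fold change of KSR23 over WT (vertical axis) for every tested gene of the 50 genes and of 4 other lists (points, coloured by call in all 10 libraries), with the median of each list as a thick line and the median of all genes tested as a dotted line. The medians of the 50 genes (0.61) and of the other mitosis genes (0.72) lie above that of the other DNA replication genes (0.15).

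Markers of the cells that a piece of jejunum holds were set beside these values. Shares called among tested markers were 50% for enterocytes, 20% for crypt cells, 27.3% for leukocytes and 16.7% each for fibroblasts and smooth muscle. They were 40% for endothelium, 25% for neurons and glia, 0% for erythroid cells and 100% for acinar cells. Over all genes tested the share was 18.5%, and each list holds few genes. The 8 enterocyte markers were the most abundant, with a summed level of 10744 to 17996 CPM in WT and 7864 to 11709 CPM in KSR23. Fabp2 was the largest part of this sum in WT (mean 9965 CPM, and 4366 CPM in KSR23), and the list moved both ways, with Fabp2 and Lct called lower (log2 fold change -1.19 ± 0.35, adjusted p = 0.00743 and log2 fold change -0.81 ± 0.30, adjusted p = 0.0442) and Krt20 and Cdh1 called higher (log2 fold change 2.22 ± 0.36, adjusted p = 1.27e-07 and log2 fold change 1.11 ± 0.38, adjusted p = 0.026). Of these 4, Lct and Cdh1 did not pass the quasi-likelihood F test. The 10 markers of crypt stem cells and progenitors summed to 465 to 641 CPM in WT and 425 to 813 CPM in KSR23, overlapping ranges, and most of the sum in WT was Olfm4 (WT 425 ± 78.6 and KSR23 334 ± 124 CPM). Of these 10, Prom1 was called higher (WT 42.4 ± 12.7 and KSR23 163 ± 59.7 CPM; log2 fold change 1.94 ± 0.34, adjusted p = 1.43e-06) and Ephb2 lower (WT 24.4 ± 4.65 and KSR23 5.79 ± 3.21 CPM; log2 fold change -2.08 ± 0.39, adjusted p = 8.29e-06), and both separated the groups and passed the quasi-likelihood F test. The 11 leukocyte markers summed to 502 to 598 and 410 to 539 CPM (2 called higher, 1 lower; 2 of these 3 calls were lost in the quasi-likelihood F test), the 6 of fibroblasts to 1248 to 1893 and 1234 to 1756 CPM (1 lower), the 6 of smooth muscle to 1612 to 3666 and 1681 to 2269 CPM (1 lower, Acta2, lost in the F test) and the 5 of endothelium to 101 to 140 and 91.0 to 149 CPM (2 lower). The 4 tested erythroid markers summed to 11.7 to 52.1 and 18.5 to 59.5 CPM, most of it Alas2. In edgeR's likelihood ratio test or quasi-likelihood F test, 0 of these 4 were called (0 at an unadjusted p under 0.05). The 4 globin genes had 3 counts or fewer in every library, but they form near-identical pairs and reads with more than 1 alignment entered no gene, so these counts do not measure erythroid content. The 8 markers of enteric neurons and glia summed to 83.9 to 102 CPM in WT and 27.2 to 44.7 CPM in KSR23, and this separation came from 1 gene, S100b (WT 48.7 ± 13.4 and KSR23 0.595 ± 0.280 CPM). In the likelihood ratio test S100b was called lower and Ret higher, the quasi-likelihood F test also called Uchl1 lower, and the 7 markers other than S100b summed to overlapping ranges, 32.5 to 49.5 CPM in WT and 26.6 to 44.6 CPM in KSR23. Groups also separated in the summed level of the 5 tested markers, of 7 listed, of pancreatic acinar cells (75.0 to 110 CPM in WT, 0.596 to 1.16 CPM in KSR23). Nearly all of this sum in WT was Ctrb1 (WT 82.2 ± 7.73 and KSR23 0.269 ± 0.282 CPM). All 5 tested acinar markers were called lower and 3 of them by the quasi-likelihood F test, the groups overlapped at Cpa1 and Cel, and Pnlip and Amy2a5 had 3 counts or fewer in every library. What part such differences in tissue content had in the values of the 50 genes was not tested.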

How the data were processed

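Per the labels and the study's methods, picograms of total RNA from jejunum were copied from oligo-dT primers, amplified by PCR and sequenced as single-end reads without molecular identifiers, so the floor below covers counting error alone. According to the submitters' processing notes, the authors aligned reads with TopHat2 2.1.0 to mm10 and counted them with HTSeq 0.6.1p1. The study describes strict intersection with gene models, and the strand setting is not given in the sources used here. The deposited values were raw counts per gene symbol, not normalized by the authors. Reads with more than 1 alignment (20.3 to 26.5% of the reads tallied in each file) entered no gene. A floor of 3 counts was 0.0492 to 0.118 CPM.

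Counts were analysed in edgeR 4.0.16 (R 4.3.3): TMM factors, genes reaching 5 counts in any library (17632 genes), group as the only term, and the likelihood ratio test, which is the test of the study, with Benjamini-Hochberg adjustment over all genes tested. Genes under an adjusted p of 0.05 were called. Fold changes set KSR23 over WT and carry the standard error of the model, and the quasi-likelihood F test was run beside it. Scripts were tested on simulated data, with a looser limit on the share of false calls for the likelihood ratio test than for the quasi-likelihood F test. Groups and replicate numbers came from the sample titles. Shared replicate numbers were not taken as pairs. Across 9737 genes, deviations of same-numbered libraries from their group means correlated from -0.74 to 0.49, over 0.1 in 3 of 5 pairs. WT replicate 1 and KSR23 replicate 3 shared a larger pattern (r = 0.88), so these correlations cannot decide whether the numbers mark pairs. Alternatives were DESeq2 1.42.0, other scaling factors, filters, a replicate block and sets of libraries. Positions are from GENCODE M21 (mm10) and promoters from RefSeq (GRCm38.p6). Values in every library are given for called genes, the 4 uncalled genes with the smallest adjusted p, Mki67, Myc and Cdkn1a, and, chosen after their values were seen, Cdc20, Cdt1, Mcm2, Mcm6, Ccna2 and Cenpa. From each other list the 4 largest called changes in each direction are named. The 50 genes, the other lists and the markers were chosen with earlier results of these data known.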

Additional observations from a re-analysis of the deposited data

Results flagged for a closer look

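In 2 of 100 groups (50 genes in 2 groups of 5 libraries) the lowest library stood apart from the rest by Dixon's criterion, where chance alone would give about 5. Myc in KSR23 replicate 3 was at 4.21 CPM, with the next KSR23 library at 32.8 CPM. Foxm1 in WT replicate 1 was at 1.45 CPM, with the next WT library at 2.48 CPM. Both libraries were also the ones most often at the edge of their group over the 50 genes. With KSR23 replicate 3 and WT replicate 1 left out, both genes were called higher in KSR23 as they were with all 10 libraries (log2 fold change 2.05 for Myc and 1.29 for Foxm1).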

How the results depend on the processing

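The count of 18 called among the 50 genes (17 higher, 1 lower) stayed within 1.5 times under DESeq2 (19), RLE factors (15), library totals alone (14), the quasi-likelihood F test (14), a filter of 5 counts in every library (19) and no filter (18). It moved to 8 (7 higher; 16%, against 16.5% of all genes) with upper-quartile factors and to 0 (0 higher, 0 lower) with replicates 1 to 3 alone in either edgeR test, which used fewer libraries. All genes called went from 3261 to 579 and, in the quasi-likelihood F test, to 140. The other DNA replication genes went from 9 to 3 with upper-quartile factors and to 0 with replicates 1 to 3 alone, the other mitosis genes from 22 to 13 and 0, the other regulators from 5 to 0 and the p53 targets from 1 to 0 in the latter. Numbers of replicates are shared by the titles only, as a replicate block they gave 6 of the 50 genes (6 higher, 0 lower: Foxm1, Aurka, Plk1, Bub1, Bub1b and Kif11), 3 other replication genes, 12 other mitosis genes and 1 other regulator, and 12.5% of all genes. WT replicate 1 and KSR23 replicate 3 deviated together (r = 0.88), more than any same-numbered pair.

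Among alternatives chosen after the data were seen, leaving out WT replicate 1 and KSR23 replicate 3 gave 20 calls (16 in the quasi-likelihood F test, with 14 other mitosis genes), and an offset for base content gave 16 with 0 lower and 2 p53 targets. Without 1 library, calls ran from 10 to 20 of the 50 genes (10 to 20 higher, 0 to 1 lower), 2370 to 3802 of all genes, 4 to 10, 14 to 29 and 2 to 5 in the other replication, mitosis and regulator lists and 1 to 2 p53 targets. Genes that changed sign were all uncalled. With library totals alone and upper-quartile factors the log2 fold changes were -0.040 and -0.10 for Gins1, -0.078 and -0.14 for Rfc4 and -0.015 and -0.11 for Cenpf. Rfc4 was at -0.023 in both edgeR tests without the named pair of libraries. With replicates 1 to 3 alone Tyms was at 0.062 in both tests, Tk1 at 0.061 and 0.062 and Cdk1 at 0.016 in both. Without 1 library, ranges crossed 0 for Cdkn1a (-0.51 to 0.054), Cdt1 (-0.63 to 0.25), Mcm6 (-0.50 to 0.24), Gins1 (-0.052 to 0.22), Prim1 (-0.35 to 0.00087), Rfc4 (-0.10 to 0.23), Tyms (-0.24 to 0.038), Tk1 (-0.25 to 0.079), Ccna2 (-0.069 to 1.22), Cdk1 (-0.18 to 0.11) and Cenpf (-0.018 to 0.24). The causes of these shifts were not tested. PCR amplification from picograms without molecular identifiers and 5 libraries a group limit all of these values.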
